A study of Canis lupus familiaris with 8 samples.

Results

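Heat shock proteins and the chaperones of the endoplasmic reticulum (ER) were followed in the left ventricle of dogs with alloxan-induced diabetes. A probe set of the array was taken as a member when the array's annotation gave it a single gene symbol that belongs to one of these families: the heat shock proteins, the DNAJ proteins, the protein disulfide isomerases, the BAG proteins, the chaperonin TRiC, calreticulin and calnexin, and the sensors and degradation factors of the ER. The mitochondrial chaperones HSPA9, HSPD1 and HSPE1 were not included. The rule used names only and no measured value. It found 108 probe sets of 64 genes among 23836 probe sets tested. Among these genes, 34 act in the cytosol or nucleus (59 probe sets), 22 belong to the ER (35 probe sets), 5 are mitochondrial DNAJ proteins (9 probe sets) and 3 share only the name (5 probe sets).

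Cardiac RNA was taken from 4 control dogs, named D5, D6, D7 and D8, and from 4 DM dogs, named 0292, 0294, 1087 and 1111. All were male mongrel dogs with a labelled weight of 23 to 27 kg, and per the methods all had been operated on for implanted instruments. The DM dogs were given alloxan, a compound toxic to the insulin-producing beta cells, at 40 to 60 mg/kg into a vein. Per the methods, some of them had a second injection, and only dogs with a blood glucose over 200 mg/dl on day 7 were kept. Their hearts were taken 4 weeks after alloxan. The ages of the dogs are not given in the sources used here. The labels describe the sample as whole cardiac tissue, so the RNA comes from all cells of the wall. In such samples, fewer cells of a type and less RNA per cell cannot be told apart.

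Chaperones hold unfolded proteins in a state from which they can fold, and they hand failed proteins to degradation. In the cytosol, small heat shock proteins bind unfolding proteins without using ATP, HSP70 with its DNAJ partners and HSP90 with its co-chaperones fold them in ATP-driven cycles, and TRiC encloses actin and tubulin while they fold. In the ER, an excess of unfolded protein sets off the unfolded protein response, which raises the ER chaperones through the transcription factors XBP1, ATF4 and ATF6. Heart muscle is known for high levels of small heat shock proteins, which sit on the sarcomere.

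Values below are log2 signals after quantile normalization with an offset of 16, so a difference of 1 is a doubling. A probe set is called dim here when its mean over the 8 dogs lay in the lowest 20% of all probe sets, below 6.05, and 16 of the 108 members were dim. The log2 fold change, or log2 difference, is always DM minus control. Adjusted p-values are limma's with Benjamini-Hochberg adjustment over all probe sets tested. The labelled tissue was checked against genes of heart muscle cells. The array holds 8 of 12 listed genes, none of them dim, and all 8 had lower mean values in the DM dogs, with a median log2 fold change of -1.91. Their summed log2 level was 17.76 to 18.66 in control dogs and 16.57 to 17.34 in DM dogs. The arrays also differed in technical measures, and some of these differences ran along with the groups. The hybridization controls, spiked in at fixed amounts, had a mean log2 signal of 13.09 to 13.36 in D5, D6 and D7, of 15.77 in D8 and of 15.17 to 17.72 in the DM arrays, so array signal and group cannot be fully told apart. Possible signs of RNA quality also differed. The log2 signal of the 3′ probe set of GAPDH over its 5′ probe set lay between 3.47 and 5.96 for the control dogs and between 0.63 and 3.14 for the DM dogs, without overlap (exact permutation test, two-sided p = 0.0286, the smallest that 4 against 4 can give). For actin it was 1.72, 1.54, 3.27 and 6.67 in D5, D6, D7 and D8 and 3.68 to 7.35 in the DM arrays (exact p = 0.171). The measures thus ran in opposite directions. The DM mean was lower for GAPDH (1.80 against 4.28 in control) and higher for actin (5.66 against 3.30). The study lists GAPDH itself as lower in DM dogs, and the part of that in its 3′ over 5′ value was not tested. The part of RNA quality in the values below was not tested. The mean correlation of D8 with the other control dogs was 0.776, against 0.863 to 0.865 for D5, D6 and D7, and that of 0292 with the other DM dogs was 0.549, against 0.633 to 0.656. Every DM array thus correlated less with its own group than every control array did.

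At the adjusted p threshold of 0.05 in limma, 0 of 108 members were called, beside 0.0168% of all probe sets tested. At an unadjusted p under 0.05, 7 members were higher in the DM dogs, or 6.48%, where the share of all probe sets was 7.79%, and 19 were lower, or 17.6%, where it was 8.97%. Higher values without overlap between the groups were seen for 7 members (6.48%), against 4.93% of all probe sets. Lower values without overlap were seen for 8 members (7.41%), against 5.87%. The thresholds named in the study's methods, a P of 0.01 or less and at least a 2-fold change, applied here to a plain two-class test and called the criteria of the methods below, were met by 4 members in the higher direction (3.70%), against 2.44%, and by 6 in the lower (5.56%), against 2.48%. The median log2 fold change over the 64 genes, each taken by its brightest probe set, was -0.18, and that of all probe sets tested was 0.06.

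Of the 108 members, 48 lie in the brightest 20% of all probe sets, and the background is not the same at every brightness. In that brightest 20%, 17.4% were lower at an unadjusted p under 0.05 and 10.2% were higher. Of the members in it, 22.9% were lower and 6.25% were higher. The balance of members also depended on how the arrays were scaled. The split at an unadjusted p under 0.05 was 9 higher and 15 lower without quantile normalization, 6 and 25 with median centring, 11 and 17 with cyclic loess, and 0 and 61 after scaling to the hybridization controls. The last scaling moved the median of all probe sets to -1.65, median centring moved it to -0.25, and the absence of quantile normalization moved it to 0.34. For these other scalings, the share of all probe sets at an unadjusted p under 0.05 was not taken, so the splits describe members alone.

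The members of the ER and those of the cytosol were told apart. Over the 22 ER genes, 12 had higher and 10 had lower mean values in DM dogs, with a median log2 fold change of 0.08 that became -0.46 with median centring and -1.94 when scaled to the hybridization controls. Over the 34 cytosolic genes, 12 were higher and 22 lower, with a median of -0.42 that stayed negative under each of the 5 scalings. That median was -0.70 without D8 and -0.19 without 0294, and the ER median was -0.02 without D7 and 0.21 without D8. Relative to the median of all probe sets, the ER genes lay between -0.28 and 0.17 under these scalings and the cytosolic genes between -1.02 and -0.48. Median centring shifts each array by a constant, so its relative values are by construction those without quantile normalization. Taken per dog as the median difference from the control mean, the ER genes stood at -0.08 to 0.07 in the control dogs and at -0.10 in 0292, 0.03 in 0294, 0.42 in 1087 and 0.44 in 1111. The cytosolic genes stood at -0.11 to 0.17 in the control dogs and at -0.89, -1.18, 0.15 and -0.11 in the DM dogs in the same order. The DM dogs with the lowest cytosolic medians, 0292 and 0294, were thus not those with the highest ER medians.

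**Figure D1:**
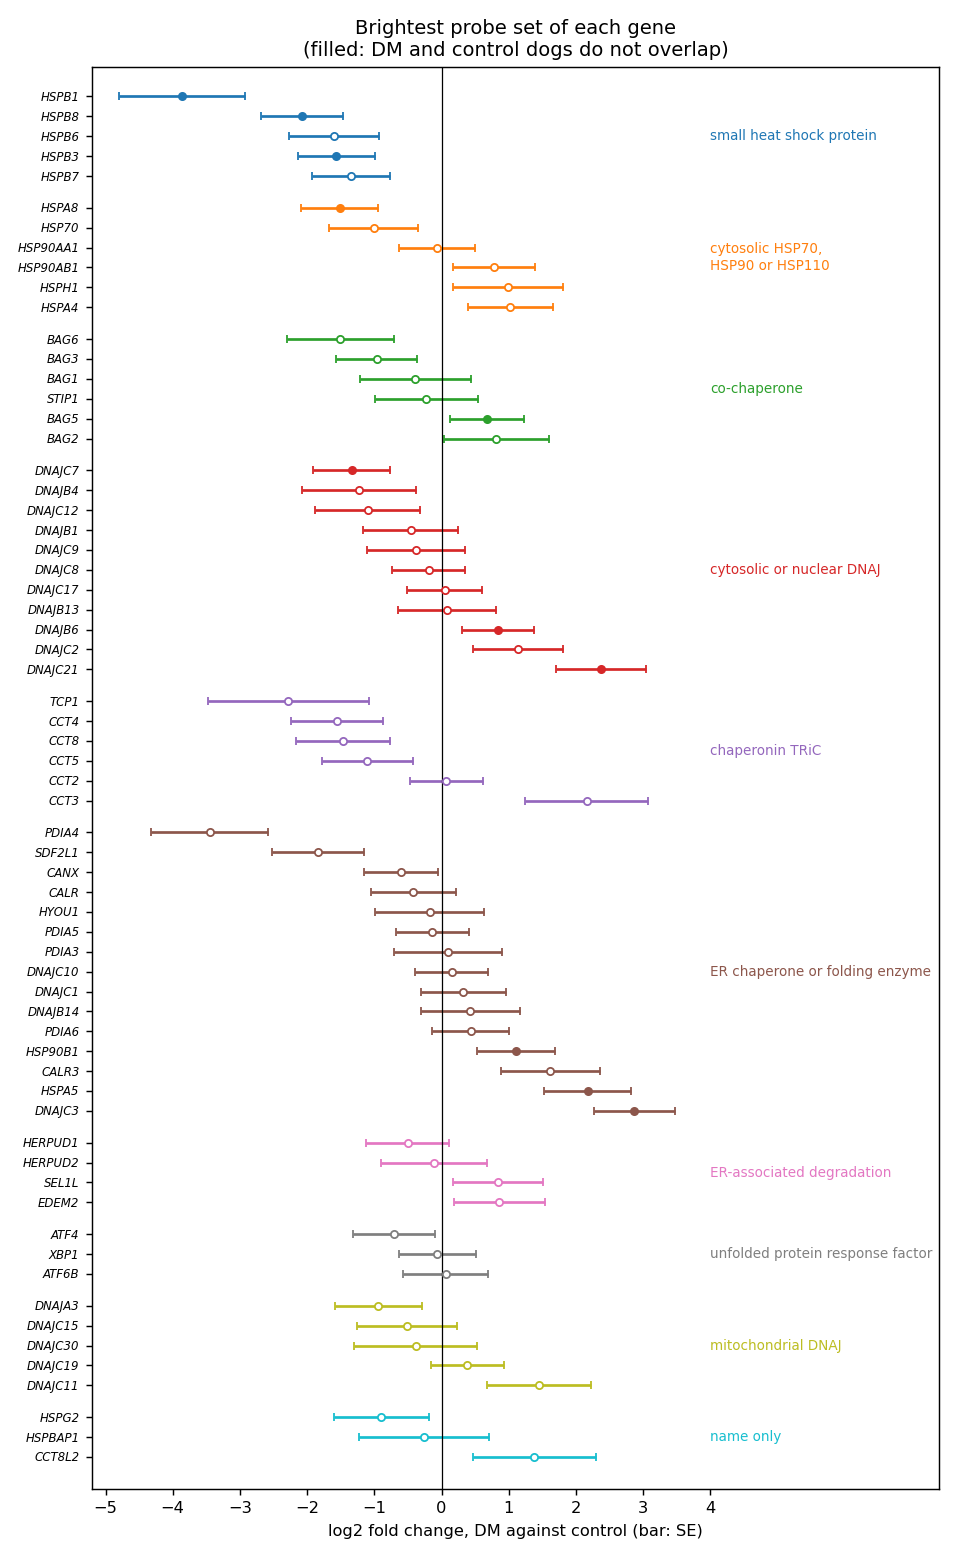
Log2 fold change, DM over control (horizontal axis) with its standard error for the brightest probe set of each of the 64 genes, grouped by role; filled points mark genes whose 4 DM and 4 control dogs did not overlap. The 5 small heat shock proteins lie between -3.86 and -1.34, and the ER chaperones spread from -3.45 to 2.87.

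The small heat shock proteins were the role whose genes all lay on the same side. All 5 genes on the array, and 8 of their 9 probe sets, had lower mean values in DM dogs, with log2 fold changes from -3.86 to -1.34 and a median of -1.60. Each of the 5 had an unadjusted p under 0.05, and none had an adjusted p under 0.05 in limma. Of the 5, 3 had no overlap between the groups and 2 met the criteria of the methods. Over all probe sets tested, the shares in the lower direction were 8.97% unadjusted, 5.87% without overlap and 2.48% by those criteria. All 5 genes lie in the brightest part of the array, as split above, where these shares were 17.4%, 14.7% and 5.87%. The direction held for all 5 under every scaling tried. Relative to the median of all probe sets, the median of the 5 was -1.66 with quantile normalization, -2.09 without it or with median centring, -1.63 with cyclic loess and -2.52 when scaled to the hybridization controls.

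HSPB1 (HSP27) caps and stabilizes actin filaments and binds unfolding proteins under stress. Its log2 signal was 11.74 in D5, 11.66 in D6, 11.84 in D7 and 10.83 in D8, and 5.28 in 0292, 8.90 in 0294, 6.29 in 1087 and 10.17 in 1111. All DM dogs lay below all control dogs, with 0292 and 1087 far below and 1111 close to D8. DM dogs differed from control dogs by -3.86 ± 0.94 (SE, n = 4 per group, adjusted p = 0.0891 in limma), or 14.5-fold lower. With 1 dog left out at a time, the adjusted p ran from 0.0319 without 1111 to 0.308 without D6.

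HSPB8 (HSP22) works with the co-chaperone BAG3 to send damaged muscle proteins to autophagy. Its brightest probe set read 14.44, 14.67, 14.47 and 13.28 in D5, D6, D7 and D8, and 12.55, 11.39, 11.71 and 12.89 in 0292, 0294, 1087 and 1111. The DM dogs all lay below the control dogs, and D8 was the control nearest to them. On the log2 scale the difference was -2.08 ± 0.61 (SE, adjusted p = 0.130 in limma), or 4.22-fold lower. The other 2 probe sets of the gene were also lower in the DM dogs, by -3.53 and -1.20 on the log2 scale, with adjusted p-values of 0.0962 and 0.516 in limma and with overlap in both.

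HSPB3 is a small heat shock protein of heart and skeletal muscle. Its brightest probe set read 13.36, 13.25, 13.22 and 12.61 in the control dogs in the same order, and 12.31, 11.74, 11.01 and 11.12 in the DM dogs. The groups did not overlap, and the lowest control, D8, was 12.61 against 12.31 for the highest DM dog. The log2 fold change was -1.56 ± 0.57 (SE, adjusted p = 0.201 in limma), and a second probe set gave a log2 difference of -1.85 ± 0.55 (SE, adjusted p = 0.133 in limma). The remaining probe set of the gene pointed the other way, with a log2 difference of 0.83 ± 0.65 (SE, adjusted p = 0.555 in limma).

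HSPB6 (HSP20), a target of cyclic nucleotide signalling in muscle, read 10.68, 10.89, 10.42 and 8.60 in the control dogs and 9.003, 7.68, 8.53 and 8.97 in the DM dogs. Here D8 fell inside the range of the DM dogs while the other 3 control dogs lay above all of them. DM dogs differed from control dogs by -1.60 ± 0.67 (SE, adjusted p = 0.250 in limma) and -2.13 without D8. HSPB7, which binds filamin in cardiac muscle, read 13.54, 13.16, 13.48 and 12.46 in the control dogs and 11.85, 11.47, 11.35 and 12.60 in the DM dogs. Only dog 1111 reached the control range, and only the part of it set by D8. The log2 fold change of HSPB7 was -1.34 ± 0.58 (SE, adjusted p = 0.268 in limma).

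**Figure D2:**
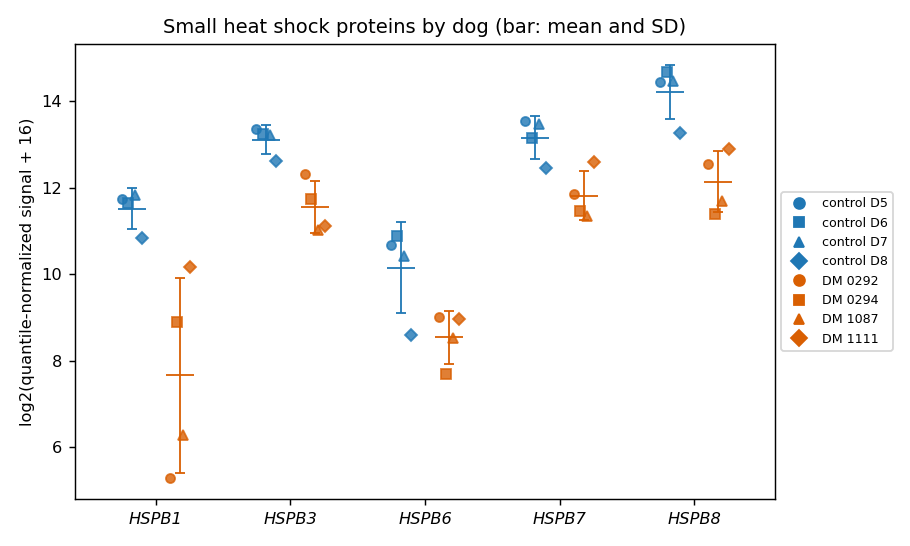
Log2 quantile-normalized signal (vertical axis) of the 5 small heat shock proteins in each dog, with the mean and SD of each group as bars. In each gene D8 is the lowest control dog, and for HSPB1, HSPB3 and HSPB8 all 4 DM dogs lie below it.

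CRYAB (alpha-B crystallin) is the main small heat shock protein of heart muscle, but its symbol does not match the naming rule, so it was counted among 51 other genes of the pathway. It read 15.18, 15.26, 15.26 and 14.15 in the control dogs and 13.22, 13.33, 12.89 and 14.36 in the DM dogs. Its pattern over the dogs was that of HSPB7, with 1111 above D8 and the other DM dogs below, and its log2 fold change was -1.51 ± 0.60 (SE, adjusted p = 0.231 in limma). Taken per dog as the median difference from the control mean over the 5 members, the small heat shock proteins stood at 0.25, 0.14, 0.27 and -0.70 in the control dogs and at -1.32, -2.47, -2.10 and -1.32 in the DM dogs. D8 was thus the control dog nearest to the DM dogs, and it was also the control with the lowest summed level of the heart muscle genes (17.76) and the highest hybridization controls (15.77). Heart muscle genes such as MYL2, the ventricular myosin light chain, with -3.94 ± 0.72 (SE, adjusted p = 0.0606 in limma), were lower in the same dogs as the small heat shock proteins, and their part in this result was not tested.

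The ER chaperones and folding enzymes did not share a direction. Of the 15 genes, 9 had higher and 6 had lower mean values in DM dogs, with a median log2 fold change of 0.15 that turned to -0.14 with median centring and to -1.70 when scaled to the hybridization controls. Relative to the median of all probe sets it lay between -0.05 and 0.18 under the 5 scalings, of which median centring and no quantile normalization necessarily give the same value. At an unadjusted p under 0.05, 3 genes were higher (DNAJC3, HSPA5 and CALR3) and 2 were lower (PDIA4 and SDF2L1). Higher values without overlap were seen for 3 genes and lower values without overlap for 0. The unadjusted shares over all probe sets tested were 7.79% in the higher and 8.97% in the lower direction. Without overlap, these shares were 4.93% and 5.87%. The genes of this role range from dim to the brightest part of the array, where the shares without overlap were 9.38% and 14.7%.

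DNAJC3 (P58IPK) is an ER co-chaperone of HSPA5 and an inhibitor of the kinase PERK, and it had the smallest adjusted p of all members. Its brightest probe set read 8.64 in D5, 8.38 in D6, 8.93 in D7 and 10.10 in D8, and 12.51 in 0292, 11.89 in 0294, 11.84 in 1087 and 11.30 in 1111. All DM dogs lay above all control dogs, and D8 was again the nearest control. On the log2 scale the difference was 2.87 ± 0.61 (SE, n = 4 per group, adjusted p = 0.0711 in limma), or 7.32-fold higher. A second probe set gave a log2 difference of 2.50 ± 0.58 (SE, adjusted p = 0.0871 in limma) without overlap, and the remaining one, dim in these samples, gave a log2 difference of 0.62 ± 0.68 (SE, adjusted p = 0.684 in limma). With 1 dog left out at a time, the adjusted p of the brightest probe set ran from 0.0351 without D8 to 0.305 without D6. Scaled to the hybridization controls, the 2 brighter probe sets had log2 differences of 0.46 and 0.09, with adjusted p-values of 0.687 and 0.942 in limma.

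HSPA5 (BiP, GRP78) is the HSP70 of the ER lumen and the chaperone that holds the stress sensors inactive. It read 4.60, 5.68, 4.82 and 6.32 in the control dogs and 7.87, 6.91, 8.52 and 6.82 in the DM dogs. The groups did not overlap, but 3 of the 4 control values lay in the dim range below 6.05. The log2 fold change was 2.18 ± 0.65 (SE, adjusted p = 0.134 in limma), and it stayed above 0 in each of 18 alternatives, from 0.76 to 2.86. The size rests on the offset, at 2.86 with an offset of 1 and 1.38 with 64, since the deposited control signals were 4.16, 33.2, 9.19 and 71.8. Probe sets of that brightness had a median log2 fold change of 0.35 over the array. HSP90B1 (GRP94), the HSP90 of the ER, read 11.04, 10.55, 10.59 and 10.995 in the control dogs and 12.73, 11.64, 11.18 and 12.05 in the DM dogs. These groups did not overlap either, with the lowest DM dog, 1087, just above D5. DM dogs differed from control dogs by 1.11 ± 0.58 (SE, adjusted p = 0.356 in limma), and scaling to the hybridization controls turned it to -1.70.

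PDIA4 (ERp72), a disulfide isomerase of the ER lumen, went the other way. It read 13.26, 12.05, 12.20 and 9.30 in the control dogs and 7.43, 9.53, 7.13 and 8.92 in the DM dogs. D8 lay between DM dogs 0294 and 1111, and the other 3 control dogs lay above all DM dogs. On the log2 scale the difference was -3.45 ± 0.87 (SE, adjusted p = 0.0938 in limma), or 10.9-fold lower, and with 1 dog left out at a time the adjusted p ran from 0.0346 without D8 to 0.325 without D6. SDF2L1, a part of the ER chaperone complex around HSPA5, was named after its values were seen. It read 8.28, 8.10, 7.91 and 6.13 in the control dogs and 6.90, 5.25, 4.95 and 5.96 in the DM dogs, with D8 inside the DM range once more. Its log2 fold change was -1.84 ± 0.69 (SE, adjusted p = 0.208 in limma).

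The calcium-binding lectin chaperones of the ER had smaller differences. CANX (calnexin) read 13.26 to 13.61 in the control dogs and 12.21 to 13.27 in the DM dogs, and its log2 fold change was -0.60 ± 0.55 (SE, adjusted p = 0.616 in limma). CALR (calreticulin) read 5.87 to 7.20 and 5.52 to 7.27, with a log2 difference of -0.42 ± 0.64 (SE, adjusted p = 0.780 in limma). In this brightest probe set of CALR, dog 1111 was the highest of all 8 dogs and the other 3 DM dogs were the lowest. The other probe sets of CALR were dim, with log2 differences of -0.74 and 0.45. CALR3, a relative of calreticulin known from testis and named after its values were seen, had 3 of 4 DM dogs above all control dogs and a log2 difference of 1.62 ± 0.73 (SE, adjusted p = 0.288 in limma).

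PDIA6, PDIA3 and HYOU1 each differed by less than 1 standard error. PDIA6 had a log2 difference of 0.43 ± 0.58 (SE, adjusted p = 0.744 in limma), with 3 of 4 DM dogs above the control range and dog 0292 below it, and it turned to -0.14 with median centring. PDIA3 (ERp57), the partner of calnexin and calreticulin, had a log2 difference of 0.09 ± 0.81 (SE, adjusted p = 0.965 in limma). It ranged from 5.04 to 7.04 in control dogs and from 4.69 to 8.16 in DM dogs. HYOU1 (ORP150), the HSP110-type partner of HSPA5, was dim, with a log2 difference of -0.18 ± 0.81 (SE, adjusted p = 0.934 in limma). PDIA5 was named after its values were seen. Its brightest probe set differed by -0.14 and a dimmer probe set by -1.77, the latter with an adjusted p of 0.249 in limma. The remaining probe set of PDIA5 differed by 0.28.

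**Figure D3:**
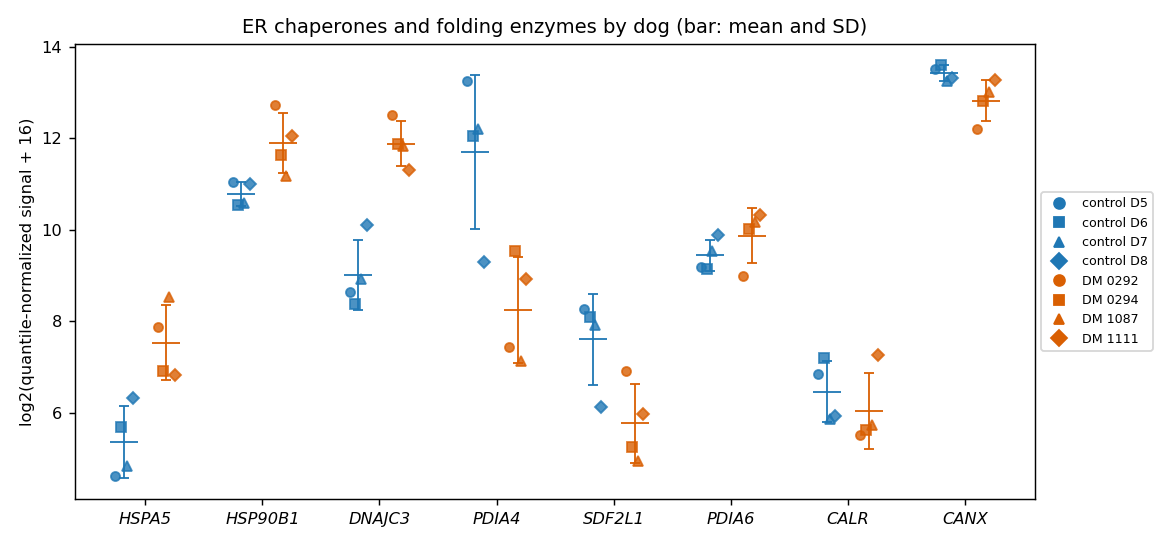
Log2 quantile-normalized signal (vertical axis) of 8 ER chaperones and folding enzymes in each dog, with the mean and SD of each group as bars. HSPA5, HSP90B1 and DNAJC3 have all 4 DM dogs above all control dogs, while in PDIA4 and SDF2L1 D8 lies among the DM dogs and the other control dogs lie above D8.

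The transcription factors of the unfolded protein response had small differences at the RNA level, with no adjusted p under 0.595. XBP1, which is activated by splicing of its RNA, read 11.21, 10.60, 10.88 and 10.45 in the control dogs and 11.19, 10.52, 10.03 and 11.15 in the DM dogs. Its log2 fold change was -0.06 ± 0.57 (SE, adjusted p = 0.967 in limma), and the signal does not tell spliced from unspliced RNA. ATF4, which is controlled through its translation, read 13.29, 13.38, 13.42 and 12.18 in the control dogs and 12.70, 12.75, 11.30 and 12.70 in the DM dogs. D8 and 1087 each lay more than 1 below the rest of their group, and the log2 fold change was -0.70 ± 0.61 (SE, adjusted p = 0.595 in limma). ATF6B, a relative of ATF6 named after its values were seen, had a log2 difference of 0.06 ± 0.63 (SE, adjusted p = 0.972 in limma). No probe set with a single symbol of ATF6, ERN1 or DDIT3 was analysed here.

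Among the genes of ER-associated degradation, which returns misfolded proteins to the cytosol, 2 of 4 had higher and 2 had lower values. SEL1L, the scaffold of the ubiquitin ligase at the ER membrane, read 8.997, 8.96, 8.72 and 10.32 in the control dogs and 11.45, 9.06, 10.09 and 9.77 in the DM dogs. Only 0292 exceeded D8, and the log2 fold change was 0.84 ± 0.67 (SE, adjusted p = 0.559 in limma), which became -1.73 when scaled to the hybridization controls. A dim probe set of SEL1L had a log2 difference of 1.96 ± 0.75 (SE, adjusted p = 0.220 in limma), with 3 of 4 DM dogs above all control dogs. HERPUD1, a target of the unfolded protein response that recruits the ligase, had a log2 difference of -0.50 ± 0.62 (SE, adjusted p = 0.719 in limma) and -0.09 without dog 0292.

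EDEM2, a mannosidase that marks glycoproteins for degradation, had 6 probe sets, and they disagreed. The brightest gave a log2 difference of 0.86 ± 0.67 (SE, adjusted p = 0.550 in limma), while the other 5 had log2 fold changes from -2.03 to -0.51. One of them met the criteria of the methods. It read 7.97, 7.72, 7.97 and 8.75 in the control dogs and 6.86, 6.20, 6.07 and 5.17 in the DM dogs, with no overlap, and its log2 fold change was -2.03 ± 0.60 (SE, adjusted p = 0.128 in limma).

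The cytosolic HSP70, HSP90 and HSP110 proteins split by gene and by probe set. Of the 6 genes, 3 had higher and 3 had lower values in DM dogs. HSPA8 (HSC70), the constitutive HSP70, read 14.05, 13.77, 13.49 and 13.17 in the control dogs and 11.87, 11.57, 12.16 and 12.83 in the DM dogs. All DM dogs lay below all control dogs, with 1111 nearest to D8. The log2 fold change was -1.52 ± 0.57 (SE, adjusted p = 0.210 in limma), or 2.86-fold lower. A second probe set of HSPA8 was also without overlap, with a log2 difference of -2.10 ± 0.76 (SE, adjusted p = 0.192 in limma), and the remaining one had a log2 difference of -0.22 ± 0.83 (SE, adjusted p = 0.919 in limma).

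HSP90AA1, the inducible HSP90, read 15.41 to 15.54 in the control dogs. In the DM dogs it read 14.48 in 0292, 15.60 in 0294, 15.66 in 1087 and 15.84 in 1111. Dog 0292 was below and the other 3 DM dogs above all control dogs, and the log2 fold change was -0.07 ± 0.57 (SE, adjusted p = 0.965 in limma). Its sign was not stable, and it was 0.91 without quantile normalization and 0.32 with median centring.

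HSP90AB1, the constitutive HSP90, showed opposite signs in its probe sets. The brightest gave 13.14, 12.61, 12.46 and 13.81 in the control dogs and 14.83, 13.43, 13.43 and 13.45 in the DM dogs, a log2 difference of 0.78 ± 0.61 (SE, adjusted p = 0.552 in limma). A dimmer probe set gave a log2 difference of -3.22 ± 0.86 (SE, adjusted p = 0.105 in limma) and another gave a log2 difference of -1.71 ± 0.65 (SE, adjusted p = 0.214 in limma). In both of these, 3 of 4 DM dogs lay below all control dogs and 1111 did not. The mean of the 3 probe sets gave -1.38 for the gene.

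HSPH1 (HSP105) and HSPA4 (APG-2) are the nucleotide exchange factors that release HSP70 from its clients. HSPH1 read 11.52, 10.79, 11.71 and 12.56 in the control dogs and 10.10, 13.45, 13.69 and 13.30 in the DM dogs. DM dogs 0294, 1087 and 1111 lay above all control dogs and 0292 lay below all of them. DM dogs differed from control dogs by 0.99 ± 0.81 (SE, adjusted p = 0.573 in limma) and 1.87 without 0292 (adjusted p = 0.125 in limma). HSPA4 had the same arrangement of dogs, with 8.62 in 0292, 10.14 to 10.99 in the other 3 DM dogs and 8.76 to 9.39 in the control dogs. Its log2 fold change was 1.03 ± 0.63 (SE, adjusted p = 0.440 in limma) and 1.63 without 0292. Both turned negative when scaled to the hybridization controls, to -1.27 and -1.16. A dimmer probe set of HSPA4 had the other sign, with a log2 difference of -0.64 ± 0.83 (SE, adjusted p = 0.740 in limma). With both D8 and 0292 left out, a dimmer probe set of HSPH1 had a log2 difference of 2.69 with an adjusted p of 0.0309 in limma, where 3.88% of all probe sets were called. The symbol HSP70, which the annotation gives without a member number, was named after its values were seen, and its 2 probe sets had log2 differences of -1.01 and 0.20.

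Among the cytosolic and nuclear DNAJ proteins, which deliver clients to HSP70 and set off its ATP hydrolysis, 5 of 11 genes had higher and 6 had lower values. DNAJC21, a factor of ribosome assembly, read 9.78, 9.46, 11.01 and 12.13 in the control dogs and 12.96, 13.18, 12.96 and 12.76 in the DM dogs. The DM dogs were close to each other and above all control dogs, among which D8 was the highest. On the log2 scale the difference was 2.37 ± 0.67 (SE, adjusted p = 0.118 in limma), or 5.18-fold higher, and it was -0.18 when scaled to the hybridization controls. The 2 dimmer probe sets of the gene had log2 differences of 1.23 and 0.26.

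DNAJC7, a co-chaperone of both HSP70 and HSP90, read 9.90, 9.42, 9.56 and 9.05 in the control dogs and 7.27, 8.48, 8.31 and 8.52 in the DM dogs. The groups did not overlap, and the log2 fold change was -1.34 ± 0.57 (SE, adjusted p = 0.263 in limma), while a dimmer probe set of the gene had a log2 difference of 1.37 ± 0.78 (SE, adjusted p = 0.400 in limma). DNAJB6, which keeps desmin and other muscle proteins from aggregating, was named after its values were seen. It read 12.39, 12.16, 12.20 and 12.15 in the control dogs and 13.36, 12.97, 13.09 and 12.84 in the DM dogs. These groups did not overlap and each was narrow, and the log2 fold change was 0.84 ± 0.53 (SE, adjusted p = 0.451 in limma). DNAJB1 (HSP40), a classical target of heat shock factor 1, was dim in these samples, with a log2 difference of -0.46 ± 0.71 (SE, adjusted p = 0.784 in limma).

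The co-chaperones that link HSP70 and HSP90 to each other and to degradation were lower in 4 and higher in 2 of 6 genes. BAG3, the partner of HSPB8, read 11.49, 11.40, 11.39 and 11.01 in the control dogs and 9.98, 9.47, 10.42 and 11.56 in the DM dogs. Dog 1111 was the highest of all 8 and the other 3 DM dogs were the lowest, and the log2 fold change was -0.97 ± 0.61 (SE, adjusted p = 0.449 in limma). STIP1 (HOP), which holds HSP70 and HSP90 together, read 5.59, 5.68, 5.75 and 8.54 in the control dogs and 4.97 to 7.00 in the DM dogs. D8 stood apart from its group there, and the log2 fold change was -0.22 ± 0.77 (SE, adjusted p = 0.911 in limma) and 0.48 without D8. BAG5, a nucleotide exchange factor named after its values were seen, read 10.38 to 10.79 in the control dogs and 10.82 to 11.87 in the DM dogs, without overlap, with a log2 difference of 0.68 ± 0.55 (SE, adjusted p = 0.570 in limma). A dimmer probe set of BAG5 had a log2 difference of -0.49 ± 0.80 (SE, adjusted p = 0.797 in limma).

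The chaperonin TRiC is built from related subunits, of which the array held 6. Their median log2 fold change was -1.29, with 4 genes lower and 2 higher, and it was -0.77 with cyclic loess, -0.60 when all probe sets of a gene were averaged and -0.83 without 0292. Taken per dog, the median difference from the control mean was 0.19, 0.11, -0.05 and -0.10 in the control dogs and -1.92 in 0292, -1.20 in 0294, -0.43 in 1087 and 0.02 in 1111. Dogs 0292 and 0294 lay furthest below the control dogs, and 1111 lay within their range. TCP1, the first subunit, read 11.37 to 11.98 in the control dogs and 4.53, 10.66, 10.61 and 11.37 in the DM dogs. Its log2 fold change was -2.28 ± 1.20 (SE, adjusted p = 0.361 in limma) and -0.74 without 0292.

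CCT8 read 11.40, 11.24, 10.99 and 10.33 in the control dogs and 7.87, 9.50, 9.76 and 10.96 in the DM dogs, with a log2 difference of -1.47 ± 0.70 (SE, adjusted p = 0.308 in limma). Its dimmer probe sets disagreed, with log2 differences of -0.88 and 1.21. CCT5 read 9.51 to 9.75 in the control dogs and 7.85, 7.77, 10.39 and 8.01 in the DM dogs, with a log2 difference of -1.10 ± 0.68 (SE, adjusted p = 0.437 in limma), and a difference of -1.79 without 1087. CCT4, named after its values were seen, had a log2 difference of -1.56 ± 0.68 (SE, adjusted p = 0.274 in limma) with 3 of 4 DM dogs below all control dogs. The other 2 subunits did not follow. CCT2 had a log2 difference of 0.07 ± 0.54 (SE, adjusted p = 0.960 in limma), and it was -0.22 without quantile normalization and -0.81 with median centring. CCT3 had a log2 difference of 2.16 ± 0.92 (SE, adjusted p = 0.257 in limma), with its other 3 probe sets between -0.97 and 0.05, and it was -0.10 when scaled to the hybridization controls.

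**Figure D4:**
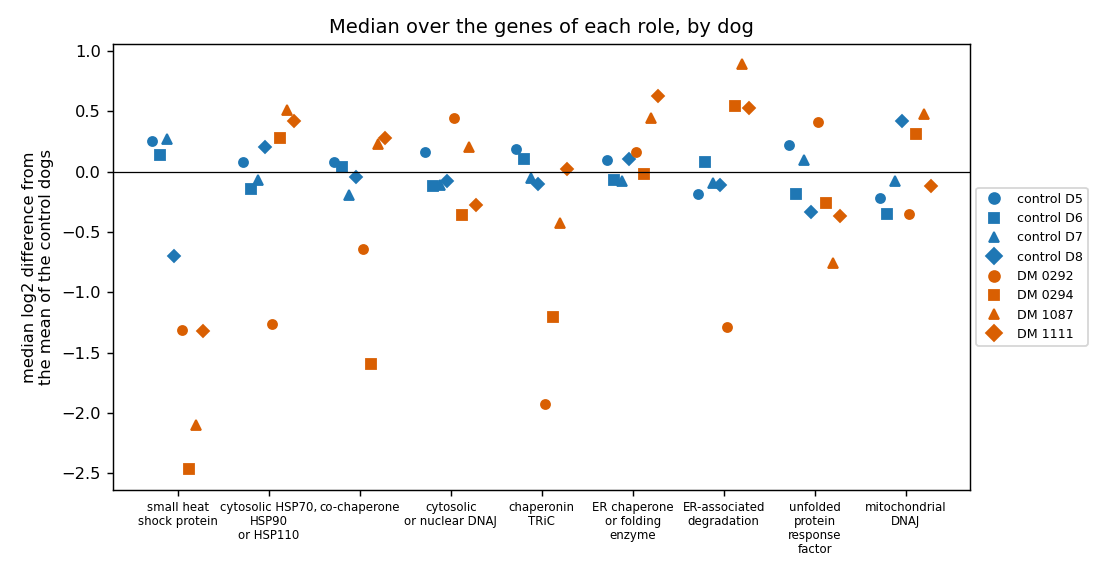
Median log2 difference from the mean of the control dogs (vertical axis) over the genes of each role, shown for each of the 8 dogs. In the small heat shock proteins all DM dogs lie below all control dogs, whereas in TRiC the DM dogs spread from -1.92 to 0.02.

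The mitochondrial DNAJ proteins, partners of the mitochondrial HSP70, had no probe set with an unadjusted p under 0.05 or without overlap. Their log2 fold changes ranged from -0.94 for DNAJA3 to 1.45 for DNAJC11 over 5 genes, with a median of -0.39, and were 0.38 for DNAJC19, a component of the protein import motor, which had 2.11 without quantile normalization, 1.52 with median centring and -0.33 when scaled to the hybridization controls. A dim probe set of DNAJA3 had the other sign, with a log2 difference of 0.27. The 3 genes that matched by name only were perlecan (HSPG2), a matrix proteoglycan, HSPBAP1 with a log2 difference of -0.26 and CCT8L2 with 1.38. The brightest probe set of HSPG2 had a log2 difference of -0.89 and the others had -2.54 and 0.85. None of these values had an adjusted p under 0.05 in limma. In the HSPG2 probe set with -2.54, D8, at 5.19, lay among the DM dogs. HSPG2, HSPBAP1, CCT8L2 and the mitochondrial DNAJ genes were named after their values were seen.

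Of the 64 genes, 25 had more than 1 probe set, and in 16 of these the probe sets included both signs. In DNAJC3 and DNAJC21 the brightest probe set had the largest difference of its gene in size, and in HSP90AB1, PDIA5 and EDEM2 a dimmer one did. Probe sets whose identifier ends in _s_at or _x_at can also bind related transcripts, and this includes the brightest of HSPB3, HSPB6, HSPB8, HSPA8, HSP90AB1 and DNAJC21.

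**Figure D5:**
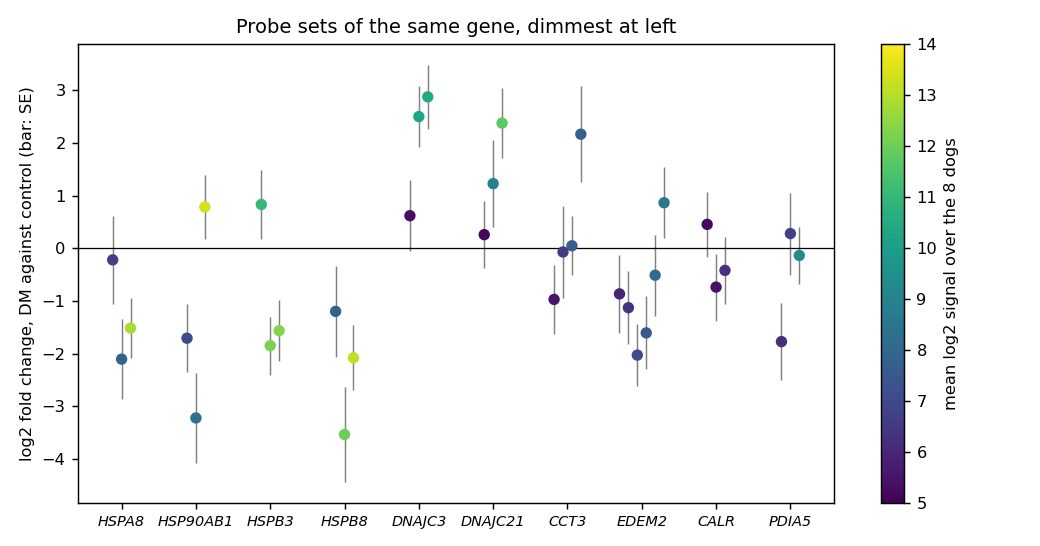
Log2 fold change, DM over control (vertical axis) with its standard error for each probe set of 10 genes, ordered from dim to bright within a gene and coloured by mean log2 signal. The probe sets of HSP90AB1 run from -3.22 to 0.78 and those of EDEM2 from -2.03 to 0.86.

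Of the 51 other genes of the same pathways, 33 were on the array, 15 with higher and 18 with lower values and a median log2 fold change of -0.53. None had an adjusted p under 0.05 in limma. At an unadjusted p under 0.05, 2 were higher and 9 lower, and 2 were higher and 4 lower without overlap. Over all probe sets tested, the unadjusted shares were 7.79% higher and 8.97% lower, and those without overlap 4.93% and 5.87%. In the brightest part of the array, as split above, they were 10.2% and 17.4%, and 9.38% and 14.7%. No share was taken for probe sets matched to these genes in brightness. STUB1 (CHIP), the ubiquitin ligase of HSP70 clients, read 9.37 to 9.63 in the control dogs and 7.39, 4.58, 9.12 and 6.41 in the DM dogs, with a log2 difference of -2.66 ± 0.83 (SE, adjusted p = 0.144 in limma). AHSA1, the activator of the HSP90 ATPase, had a log2 difference of -1.89 ± 0.75 (SE, adjusted p = 0.230 in limma). Of the heat shock factors, HSF1 had a log2 difference of 1.38 ± 0.90 (SE, adjusted p = 0.467 in limma) and HSF2 one of -2.20 ± 0.94 (SE, adjusted p = 0.257 in limma).

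Of the 8 listed genes of the translocon, through which new proteins enter the ER, 6 had lower values (SEC61A1, SEC61B, SEC63, SSR2, SSR3 and SSR4) and 2 had higher values (SEC61G and SSR1). SEC61G, its gamma subunit, read 9.25, 9.29, 9.13 and 9.90 in the control dogs and 11.80, 11.23, 10.95 and 10.17 in the DM dogs, with a log2 difference of 1.65 ± 0.59 (SE, adjusted p = 0.188 in limma), and it was the single gene of this list that met the criteria of the methods. SSR2, a subunit of the translocon-associated complex, read 9.76 to 9.91 in the control dogs and 6.82, 7.23, 9.68 and 6.79 in the DM dogs, with a log2 difference of -2.21 ± 0.70 (SE, adjusted p = 0.150 in limma). The groups did not overlap in either gene.

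Markers of other cells of the wall were read beside these values. The summed log2 level of 4 of 6 endothelial genes was 14.52 to 15.25 in control dogs and 13.27 to 15.38 in DM dogs. For 4 of 6 fibroblast genes it was 12.24 to 15.33 and 13.17 to 14.88, and for 4 of 6 genes of smooth muscle it was 12.16 to 12.97 and 11.70 to 12.48. For 7 of 9 genes of macrophages and leukocytes it was 10.89 to 12.21 and 11.11 to 13.24, with the T-cell genes CD3E and CD8A dim. Of these 7 genes, 4 had higher and 3 had lower mean values in DM dogs. The macrophage gene CD68 had a log2 difference of 1.52 ± 0.59 (SE, adjusted p = 0.222 in limma) without overlap, while CD14 and CSF1R had -1.07 and -1.21. For 2 of 4 adipocyte genes it was 7.03 to 8.79 and 6.29 to 10.16. All of these ranges overlapped between the groups, whereas that of the heart muscle genes did not. Those of smooth muscle overlapped through D8 alone, at 12.16, with D5, D6 and D7 at 12.77 to 12.97. Of the 4 smooth muscle genes, 1 had a higher and 3 had lower mean values. The endothelial and fibroblast genes split in the same way. Median log2 fold changes of these lists were -1.39, -0.77 and -0.72 in that order. DES, in the smooth muscle list, had -2.52 ± 0.62 (SE, adjusted p = 0.0917 in limma) without overlap. The part of cell make-up in the chaperone values was not tested.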

How the data were processed

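Left ventricular RNA of 8 dogs was hybridized to 1 Affymetrix Canine Genome Array per dog. According to the labels and methods, the authors deposited 1 signal intensity per probe set from MAS 5.0, on a linear scale. Here each array was scaled by 1 factor to a trimmed mean of 500 (2% trimmed from each end). Whether other steps between arrays came before deposit was not tested. RMA in GeneTraffic, which the methods name too, is not in these values. No scan date or batch is given in the sources used here.

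Quantile normalization was done on the log2 scale in R 4.3.3, and an offset of 16 was put on the back-transformed values before log2. The groups were tested with limma 3.58.1 without covariates, with dogs as replicates and Benjamini-Hochberg adjustment over 23836 probe sets. The 77 probe sets of the manufacturer's controls were left out. The number of arrays limits the precision, and an exact permutation test of 4 against 4 cannot give a two-sided p below 0.0286. The methods' t-test was run on the same values as a plain two-class test with pooled variance, at the methods' thresholds of P 0.01 or less and at least 2-fold. Neither RMA values nor the methods' variance stabilization, whose details are not given, were used here. Each gene was taken by its probe set with the highest mean. Symbols come from the platform annotation, and the gene identifiers of 103 of 108 members were found in the RefSeq gene table with 0 differing symbols. A further 2 probe sets with several symbols were not used. HSP70, a symbol without a member number, was placed with the cytosolic HSP70 proteins after the values were seen. Genes named with values were 40 fixed names, of which 31 were on the array, and each probe set past the methods' criteria. Any other member is marked as named after its values were seen. Genes of the pathway and marker lists carry no such mark. The members and lists were chosen with earlier results of these data known. Alternatives were 4 other scalings, offsets of 1 and 64, no dim probe sets, the t-test, gene means, each dog left out, and D8 and 0292 left out together. The scripts were tested on simulated data. Protein and promoter sequences were not analysed here.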

Additional observations from a re-analysis of the deposited data

Results flagged for a closer look

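Within each group of 4 dogs, the named values were searched for a dog whose gap to the nearest of the others took up most of the group's range, past the 95% critical value of Dixon's test. Of 72 such sets of 4 values, 11 met this, where chance alone gives about 1 in 20. Control dog D8 was the dog that stood apart in 4 of them and DM dog 0292 in 4, with 1087 in 2 and 1111 in 1.

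D8 stood below the other control dogs in the small heat shock proteins HSPB8 (13.28 against 14.44 to 14.67) and a dimmer probe set of HSPB3 (12.56 against 13.23 to 13.32), and in ATF4 (12.18 against 13.29 to 13.42). It stood above them in STIP1 (8.54 against 5.59 to 5.75). Dog 0292 stood below the other DM dogs in TCP1 (4.53 against 10.61 to 11.37), HSPH1 (10.10 against 13.30 to 13.69) and DNAJC7 (7.27 against 8.31 to 8.52), and above them in HSP90AB1 (14.83 against 13.43 to 13.45). Dog 1087 was low in ATF4 (11.30 against 12.70 to 12.75) and high in CCT5 (10.39 against 7.77 to 8.01). Dog 1111 was high in CALR (7.27 against 5.52 to 5.73). D8 was also the control array, and 0292 the DM array, with the lowest mean correlation with its own group. With log2 differences of 6.67 and 7.35, D8 and 0292 had the highest 3′ over 5′ signal of actin. For GAPDH, D8 was again the highest at 5.96, whereas 0292, at 1.46, lay below all control dogs. The part of array quality in these values was not tested.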

How the results depend on the processing

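Of the 36 values of named probe sets, 20 kept their direction in every alternative run. The t-test and the removal of dim probe sets cannot change a direction, nor can gene means for a gene with 1 probe set. Where a count of members below stands without a share of all probe sets, no such share was taken under that alternative. Without quantile normalization the median of the ER chaperones was 0.45, HYOU1 was 0.13, HSP90AA1 0.91 and CCT2 -0.22. With median centring 2 members had an adjusted p under 0.05 in limma (1.85%, against 0.994% of all probe sets), 2 were higher and 3 lower by the methods' criteria, 3 were higher without overlap, and the medians were -0.71 over all members, -0.46 in the ER, -1.03 in the cytosol, -2.34 in the small heat shock proteins and -0.14 in the ER chaperones, with PDIA3 at -0.078, PDIA6 at -0.14, HSP90AA1 at 0.32 and CCT2 at -0.81. With cyclic loess 11 members were higher at an unadjusted p under 0.05, PDIA3 was -0.11 and HSP90AA1 0.014. With an offset of 1 PDIA3 was -0.012, and with 64 the adjusted calls were 6 (5.56%, against 1.85%).

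Scaled to the hybridization controls, under which the median of all probe sets was -1.65, 48 members had an adjusted p under 0.05 (44.4%, against 32.2% of all probe sets), those with an unadjusted p under 0.05 were 0 higher and 61 lower, 0 and 19 met the methods' criteria, and 0 and 24 did not overlap. The medians were then -2.26 over all members, -1.94 in the ER, -2.67 in the cytosol, -4.17 in the small heat shock proteins, -1.70 in the ER chaperones and -3.54 in TRiC. HSP90B1 was -1.70, PDIA3 -1.55, PDIA6 -1.93, SEL1L -1.73, HSP90AB1 -1.53, HSPA4 -1.16, HSPH1 -1.27, CCT2 -2.64, CCT3 -0.10 and DNAJC21 -0.18. Without dim probe sets the cytosolic median was -0.97. With gene means TRiC was -0.60, HSP90AB1 -1.38 and DNAJC7 0.0148.

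Without D8 and 0292 together, 9 members had an adjusted p under 0.05 (8.33%, against 3.88% of all probe sets), 13 were higher at an unadjusted p under 0.05, 9 were higher and 10 lower by the methods' criteria, and 24 were higher and 22 lower without overlap in 3 against 3. The medians were 0.29 in the ER, -2.43 in the small heat shock proteins and 0.42 in the ER chaperones, with PDIA3 at -0.44, HYOU1 at 0.42, HSP90AA1 at 0.17 and STIP1 at 0.40. With 1 dog left out at a time, adjusted calls ranged from 0 to 4 (4 without D8 and 4 without 1111, or 3.70% of members, against 1.22% and 1.77% of all probe sets), unadjusted calls from 6 to 13 higher (13 without 0292) and from 11 to 21 lower (11 without D5), calls by the methods' criteria from 2 to 8 higher and from 2 to 10 lower, and members without overlap from 7 to 19 higher and from 8 to 21 lower. The ER median ranged from -0.02 (without D7) to 0.21 (without D8), the cytosolic median from -0.70 (without D8) to -0.19 (without 0294) and that of TRiC from -1.61 (without 1087) to -0.83 (without 0292). The small heat shock median ranged from -2.13 to -1.51 and that of the ER chaperones from 0.053 to 0.45 (0.45 without D8). XBP1 ranged from -0.24 to 0.16, DNAJB1 from -0.73 to 0.045 (without D5), CCT2 from -0.031 to 0.25, PDIA3 from -0.53 to 0.62, HYOU1 from -0.62 to 0.55, STIP1 from -0.52 to 0.48 and HSP90AA1 from -0.22 to 0.21. Smaller groups lack overlap more often by chance, so the counts without overlap above cannot be set against those of 4 against 4. The cause of the changes under these alternatives was not tested.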
